A study of Canis lupus familiaris with 13 samples.

Results

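Muscle releases proteins that act on nerve, on other tissues and on muscle itself, and 10 genes of this kind and of their signalling were followed here in dog muscle. They were taken by symbol from the deposited table of 30951 genes: BDNF, MSTN, FNDC5, IL15, METRNL, IGF1 and IGF2, which encode secreted factors or their precursor, FST, a secreted inhibitor, ACVR2B, a receptor, and SMAD7, an inhibitor inside the cell. Each symbol matched 1 Ensembl gene. RNA came from biopsies of the biceps femoris, a thigh muscle, of 4 wild-type dogs aged 9 to 10 months, and was sequenced as 13 libraries. The 3 basal libraries (sample number 0) came from dogs 2, 3 and 4. The 10 insulin-stimulated libraries were sample 1 and sample 2 of all 4 dogs and sample 3 of dogs 1 and 2. The labels do not say what the sample numbers stand for, nor how insulin was given. Sample 0 was always basal and samples 1, 2 and 3 always insulin-stimulated. A difference due to insulin and a difference due to sample order therefore cannot be told apart. Several libraries share a dog, so comparisons were made within dogs, and dog 1 had no basal library.

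Myostatin, the product of MSTN, is a ligand of the TGF-beta superfamily made mainly by muscle fibres. It binds the activin receptor ACVR2B, signals through SMAD2 and SMAD3 and limits muscle mass, while follistatin (FST) traps it outside the cell and SMAD7 blocks the signal inside. BDNF is a neurotrophin that binds the receptor TrkB (NTRK2), and it is also made by muscle fibres and satellite cells, where it has been linked to fat oxidation and to the upkeep of the nerve-muscle contact. IGF1 and IGF2 promote growth and regeneration through IGF1R, FNDC5 is the membrane precursor of irisin, IL15 is a cytokine abundant in muscle, and METRNL is a secreted factor described in muscle and fat.

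Library totals ranged from 45200416 to 81948641 counts. The 10 skeletal muscle fibre markers were all detected and together made up 252415 to 423394 CPM (counts scaled to the library total after TMM adjustment), and none was at 0 in any library. Dog 3 sample 0 held more connective tissue RNA than the other libraries, with 3016 CPM summed over 8 fibroblast markers against 240 to 1225 CPM elsewhere. The same library also had the highest sums of macrophage (48.2 CPM), neutrophil (72.8 CPM) and platelet markers (14.0 CPM). Its sums of endothelial (335 CPM), adipocyte (78.3 CPM) and nerve and Schwann cell markers (74.0 CPM) were the highest too. Dog 1 sample 2 had the lowest sum over 7 satellite cell markers, 8.19 CPM against 25.5 to 41.9 CPM in the other 12 libraries, and the highest share of ACTA1. In such bulk tissue fewer cells of a type and less RNA per cell cannot be told apart. Gene lengths for the authors' genome build were not used here, so levels are compared between libraries and not between genes.

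BDNF (ENSCAFG00000010207) was lower in the insulin libraries than in the basal library of every dog that could be compared. Its level in basal libraries was 2.72 CPM in dog 2, 1.95 CPM in dog 3 and 2.22 CPM in dog 4. With insulin it was 0.494, 0.713 and 0.770 CPM in samples 1, 2 and 3 of dog 2, 0.516 and 0.557 CPM in samples 1 and 2 of dog 3, and 0.292 and 0.346 CPM in samples 1 and 2 of dog 4. Every basal library lay above every insulin library, including those of dog 1, at 0.560, 0.1204 and 0.437 CPM in samples 1, 2 and 3. How many of all genes separate the libraries in this way was not counted. Within a dog, the basal level was 4.12 times the mean insulin level in dog 2, 3.63 times in dog 3 and 6.95 times in dog 4.

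The mean BDNF level was 2.29 ± 0.390 CPM (SD, n = 3) in basal and 0.481 ± 0.193 CPM (n = 10) in insulin libraries. The log2 fold change was -2.22 ± 0.38 (SE; 95% confidence interval -3.04 to -1.41; adjusted p = 0.0373, edgeR's quasi-likelihood test with dog as a block and Benjamini-Hochberg adjustment over all genes). BDNF is a scarce transcript, and these levels rest on 401 counts in the 3 basal and 290 counts in the 10 insulin libraries. DESeq2 gave the same log2 fold change of -2.22 with an adjusted p of 1.61e-05. In edgeR the size of the difference held when libraries were left out, while its call did not. With any 1 library left out the log2 fold change stayed between -2.39 and -1.96, but adjusted p was under 0.05 in 3 of 13 such fits, those without a library of dog 1, and reached 0.387 without dog 4 sample 0. With the insulin libraries of a dog summed, so that each dog counted once, the log2 fold change was -2.22 with an adjusted p of 0.316.

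**Figure D1:**
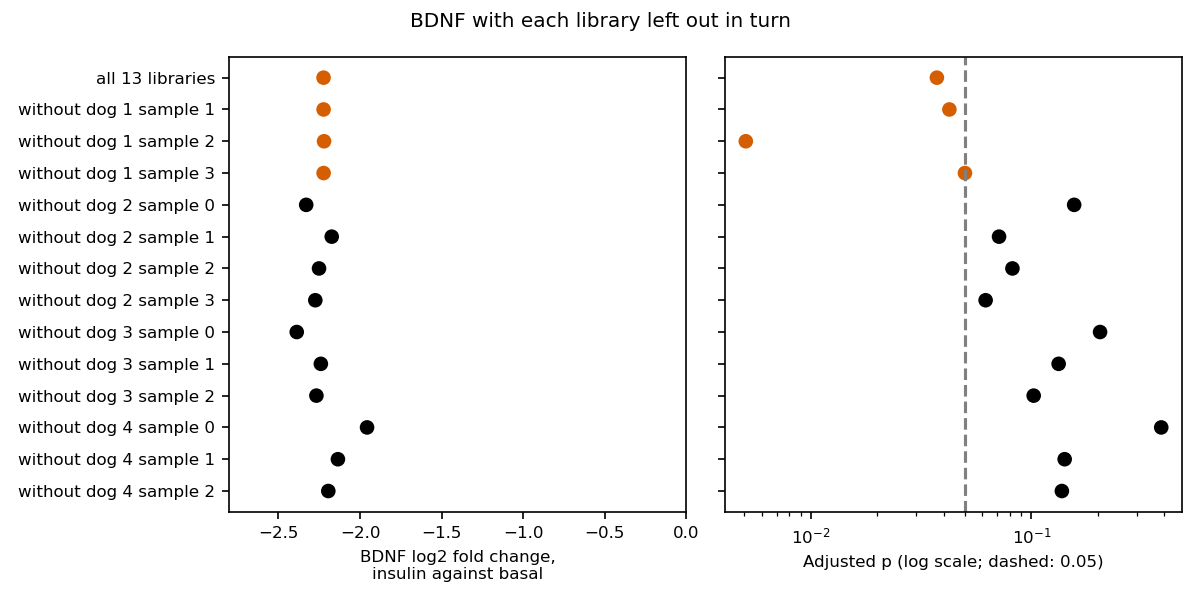
BDNF with all 13 libraries and with each library left out in turn: the log2 fold change of insulin against basal (left) and its adjusted p on a log axis (right, dashed line at 0.05). Orange points lie under 0.05. The fold change stays between -2.39 and -1.96 while all 10 adjusted p values without a library of dog 2, 3 or 4 lie above 0.05.

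BDNF was the only one of the 9 tested genes to pass in this comparison (0 higher, 1 lower). Over all 14629 genes tested 0.137% passed in either direction and 0.109% as lower. The 9 genes had a median log2 fold change of -0.02 against -0.0013 over all genes, with 4 above and 5 below 0. SMAD7 was too scarce for the filter on low counts.

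**Figure D2:**
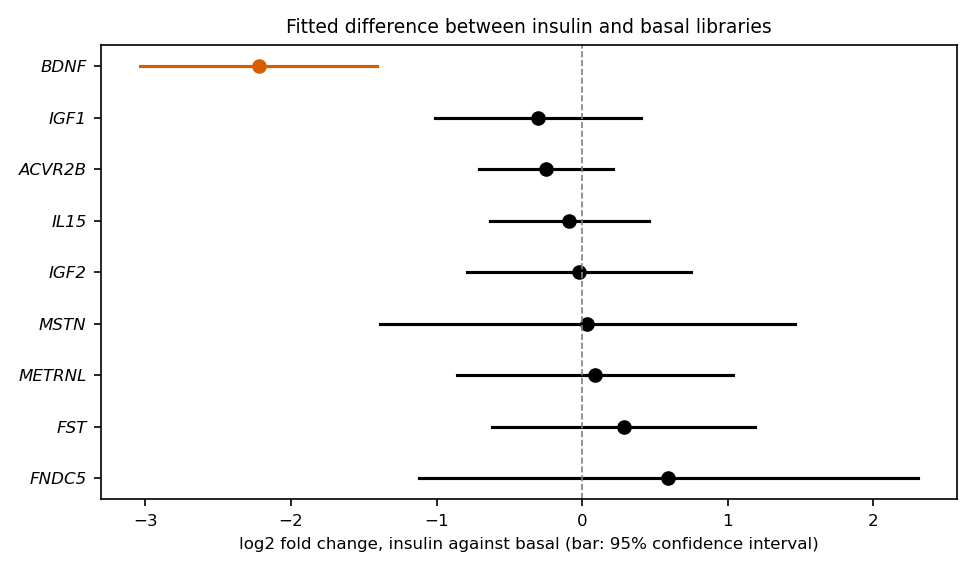
Fitted log2 fold change of insulin against basal for the 9 tested genes, with 95% confidence intervals as bars and BDNF, the only gene past the threshold, in orange. The interval of BDNF runs from -3.04 to -1.41, and those of the other 8 genes include 0.

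The 3 insulin sample numbers held similar BDNF levels. From high to low, the means were 2.29 ± 0.390 CPM (SD, n = 3) in sample 0, 0.604 ± 0.235 CPM (n = 2) in sample 3, 0.466 ± 0.119 CPM (n = 4) in sample 1 and 0.434 ± 0.258 CPM (n = 4) in sample 2. Only the gap after sample 0 was wider than the SD of each of the groups on its sides. Against sample 0, edgeR gave a log2 fold change of -2.14 ± 0.50 for sample 1 (adjusted p = 0.553) and -2.39 ± 0.47 for sample 2 (adjusted p = 0.197). Neither passed with edgeR, while DESeq2 called BDNF in both (adjusted p = 0.00513 and 0.000567). Sample 2 against sample 1 gave -0.25 ± 0.45 (95% confidence interval -1.25 to 0.75, adjusted p = 0.935). Both comparisons with sample 0 share the same basal libraries.

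Among the 10 genes, edgeR called 0 in sample 1 against sample 0, 0 in sample 2 against sample 0 and 0 in sample 2 against sample 1, where it called 0%, 0.0479% and 0% of all genes. At an unadjusted p under 0.05 it found 1 gene in each, which was BDNF in the comparisons with sample 0 and IGF2 between samples 2 and 1, beside 438, 724 and 495 of the 14629 genes tested. DESeq2 called 1, 1 and 0 of the 10 and 40, 73 and 0 genes in all.

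Markers of blood and support cells were set beside BDNF, since BDNF is also carried by platelets and made by other cells. Of 7 platelet markers 3 were in the table, and all 3 had a lower mean with insulin. Their summed level was 2.86 to 14.0 CPM in basal and 1.80 to 5.42 CPM in insulin libraries. In dog 2 it was 2.86 CPM in the basal library and 2.40 to 4.04 CPM in the insulin libraries. In dog 3 it was 14.0 CPM in the basal library and 1.92 and 1.80 CPM in samples 1 and 2. In dog 4 it was 8.64 CPM in the basal library and 2.18 and 2.44 CPM in samples 1 and 2. The chemokine gene PPBP, one of the 3, had a mean of 5.12 CPM at baseline and 0.655 CPM with insulin. Of 7 nerve and Schwann cell markers 2 had a higher and 5 a lower mean with insulin, with sums of 29.3 to 74.0 CPM in basal and 41.3 to 64.5 CPM in insulin libraries. The satellite cell sum was 25.5 to 26.1 CPM in basal and 8.19 to 41.9 CPM in insulin libraries, with 3 of 7 markers higher and 4 lower in mean. SDC4, the most abundant of the 7 and most of the mean sum, had means of 17.3 CPM at baseline and 24.4 CPM with insulin. PAX7 and DLK1 also had higher means with insulin. VCAM1 had 4.63 and 3.46 CPM and MYF5 1.78 and 1.21 CPM at baseline and with insulin, and CALCR and CHODL were lower too. The lowest sum was in dog 1 sample 2, the library with the lowest BDNF level. At 8.19 CPM it lies below both SDC4 means, so it includes a low level of that 1 gene. Within dogs 2, 3 and 4 every insulin library had a higher sum than the basal library. Samples 0, 1, 2 and 3 of dog 2 held 25.7, 41.9, 41.6 and 30.5 CPM. Samples 0, 1 and 2 held 26.1, 38.5 and 30.8 CPM in dog 3 and 25.5, 35.5 and 37.4 CPM in dog 4. The part of these cells in the BDNF difference was not tested.

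The receptors and processing enzymes of neurotrophins did not pass with BDNF. Of 13 listed genes 9 were tested, 0 passed in either direction with edgeR, 0 had an unadjusted p under 0.05 and DESeq2 called 0. Their median log2 fold change was -0.22. The TrkB gene NTRK2 had 6.46 ± 5.47 CPM (SD, n = 3) at baseline and 4.67 ± 1.55 CPM (n = 10) with insulin. Its highest level of 12.6 CPM was in dog 3 sample 0, the library with the highest fibroblast, nerve, endothelial, adipocyte, macrophage, neutrophil and platelet marker sums. FURIN, a protease that can cleave proBDNF and promyostatin, had a log2 fold change of -0.39 ± 0.33, and the related convertase PCSK7 had -0.22 ± 0.19 (adjusted p = 1 for both).

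The genes whose level followed BDNF most closely were found among 8271 genes with a symbol and a mean log2 CPM of at least 1, by Pearson's r over the 13 libraries after each dog's mean was subtracted. They were TXNIP (r = 0.96), which restrains glucose uptake, the muscle ubiquitin ligase TRIM63 (r = 0.95), PM20D2 (r = 0.95), AKAP13 (r = 0.93) and KBTBD8 (r = 0.92). TXNIP and TRIM63 also passed in insulin against basal, with log2 fold changes of -1.73 and -2.22. PM20D2, AKAP13 and KBTBD8 had -0.36, -0.89 and -1.39 and did not pass (adjusted p = 0.957, 0.110 and 0.124). These r values describe 13 libraries from 4 dogs and include the shift between basal and insulin that the genes share.

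**Figure D3:**
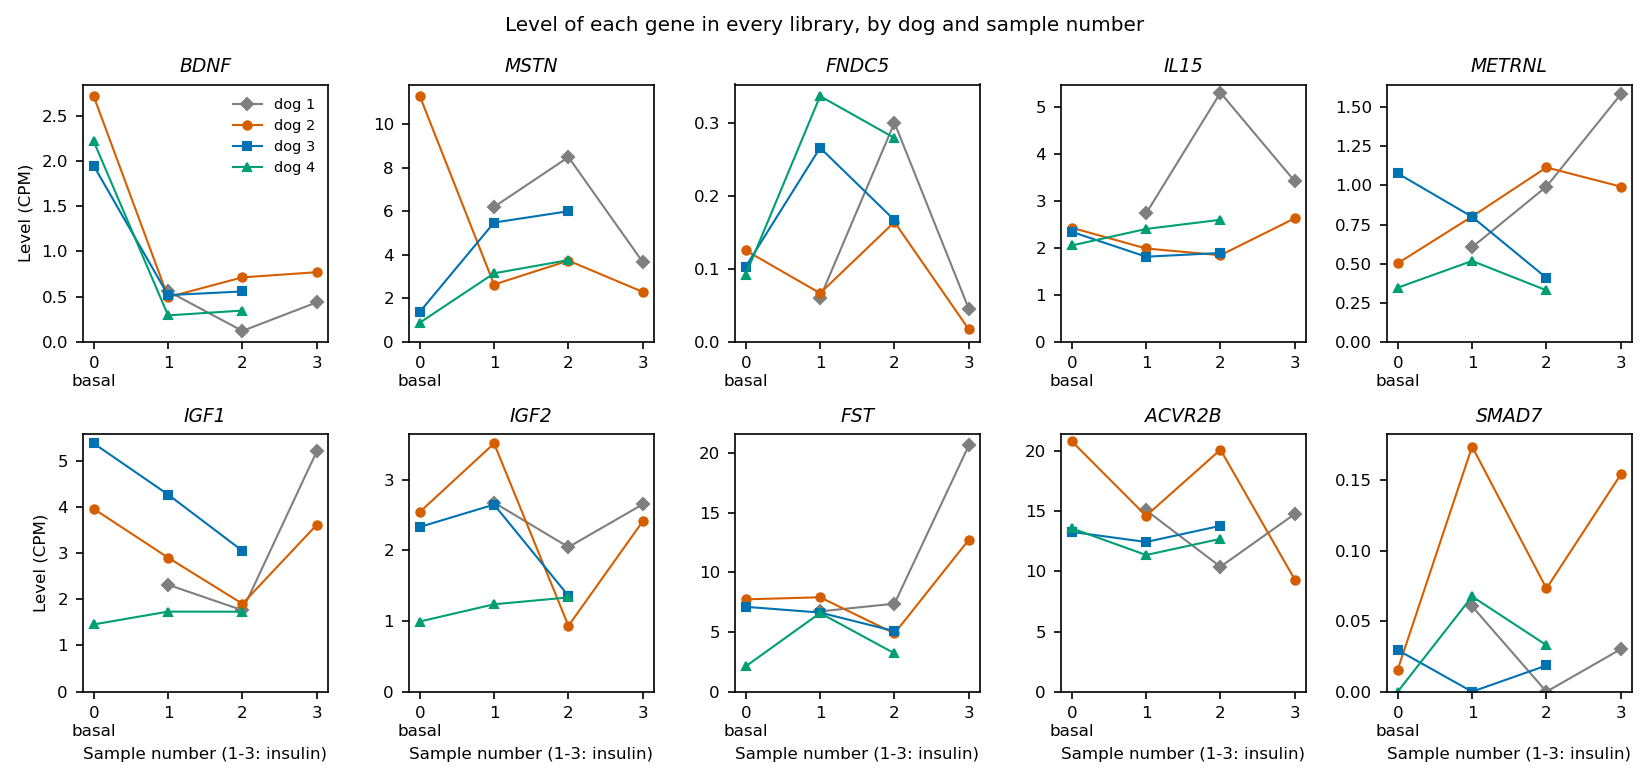
Level of each of the 10 genes (CPM, vertical axes from 0) against sample number, with 1 line per dog. BDNF is high in all 3 basal libraries, MSTN is high in the basal library of dog 2 only, and FST and IGF1 are higher in sample 3 than in sample 2 of dogs 1 and 2.

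MSTN (ENSCAFG00000009398), the myostatin gene, lay on opposite sides of basal in different dogs. The basal level was 11.3 CPM in dog 2, 1.37 CPM in dog 3 and 0.878 CPM in dog 4, a 12.9-fold range. With insulin it was 2.63, 3.73 and 2.29 CPM in samples 1, 2 and 3 of dog 2, all below that dog's basal library. It was 5.48 and 6.002 CPM in samples 1 and 2 of dog 3 and 3.15 and 3.76 CPM in samples 1 and 2 of dog 4, all above basal. Dog 1, without a basal library, had 6.20, 8.49 and 3.66 CPM in samples 1, 2 and 3.

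Expressed within dogs, the mean MSTN level with insulin was 0.255 times the basal level in dog 2, 4.18 times in dog 3 and 3.93 times in dog 4. The group means were nearly equal, at 4.52 ± 5.88 CPM (SD, n = 3) in basal and 4.54 ± 1.94 CPM (n = 10) in insulin libraries. The log2 fold change was 0.04 ± 0.66, and its 95% confidence interval from -1.39 to 1.46 leaves room for changes of either sign. The fold changes were 0.15 ± 0.72 in sample 1 against sample 0, 0.45 ± 0.72 in sample 2 against sample 0 and 0.30 ± 0.59 in sample 2 against sample 1 (adjusted p = 1, 0.956 and 0.945).

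The MSTN value depended on each basal library. Without dog 2 sample 0 the log2 fold change of insulin against basal was 2.02 (adjusted p = 0.0659), and that of sample 2 against sample 0 was 2.19 and passed (adjusted p = 0.0459). Without dog 3 sample 0 it was -0.72 and without dog 4 sample 0 it was -0.68 in insulin against basal. Each dog has a single basal library, so a difference between dogs and a difference between single basal biopsies cannot be told apart. The muscle fibre marker sum was 252415 to 328071 CPM in the 3 basal libraries, and its part in the MSTN levels was not tested.

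**Figure D4:**
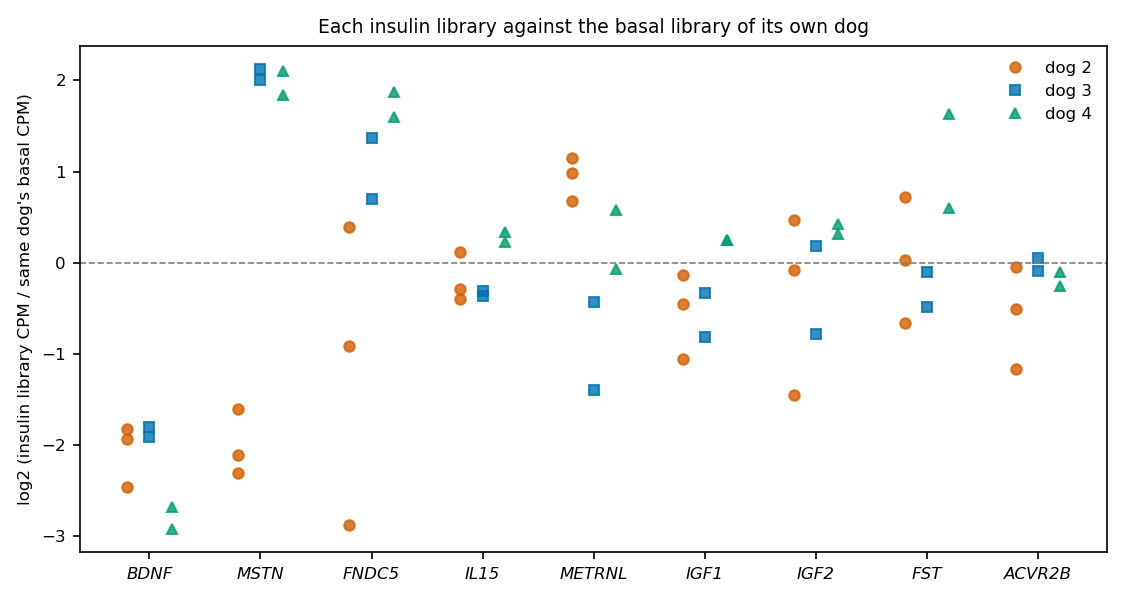
Each insulin library of dogs 2, 3 and 4 divided by the basal library of the same dog, on a log2 scale, for the 9 tested genes (symbol and colour give the dog). All BDNF points lie below 0, MSTN points lie below 0 in dog 2 and above 0 in dogs 3 and 4, and ACVR2B points lie closer to 0.

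The genes closest to MSTN by the same measure, among 8270 candidates, were SLC22A31 (r = 0.92), the glutathione-degrading enzyme gene CHAC1 (r = 0.91), the orphan receptor gene GPRC5C (r = 0.91), METTL7A (r = 0.90) and GRB10 (r = 0.87), an adaptor that binds the insulin and IGF1 receptors. None of the 5 passed in insulin against basal (adjusted p = 1 for all 5), with log2 fold changes from 0.06 for SLC22A31 to 0.37 for GPRC5C.

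FST (ENSCAFG00000018405), the myostatin and activin trap, was highest in sample 3. Its level was 20.6 CPM in dog 1 sample 3 and 12.7 CPM in dog 2 sample 3, above all other libraries. Samples 1 and 2 held 6.73 and 7.38 CPM in dog 1, 7.91 and 4.88 CPM in dog 2, 6.63 and 5.07 CPM in dog 3, and 6.59 and 3.21 CPM in dog 4. The basal libraries held 7.74, 7.11 and 2.12 CPM in dogs 2, 3 and 4, so that basal and insulin libraries overlapped.

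In insulin against basal FST had a log2 fold change of 0.28 ± 0.42 (95% confidence interval -0.62 to 1.19, adjusted p = 1). It had 0.33 ± 0.33 in sample 1 against sample 0, -0.21 ± 0.33 in sample 2 against sample 0 and -0.53 ± 0.29 in sample 2 against sample 1 (adjusted p = 1, 0.956 and 0.902). Sample 3, held by 2 dogs, was compared with samples 1 and 2 after these levels had been seen. FST had log2 fold changes of 0.93 ± 0.38 against sample 1 and 1.47 ± 0.37 against sample 2, with unadjusted p of 0.0323 and 0.00220 and adjusted p of 0.989 and 0.946 in edgeR. In these 2 comparisons edgeR called 0% and 0% of all genes and DESeq2 called 2 and 8 genes, and 0 of the 10 members passed with either tool. At an unadjusted p under 0.05, edgeR found 1 and 3 of the members, which were FST in both and also IGF1 and FNDC5 against sample 2, beside 575 and 757 of the 14629 genes tested. For the other genes sample 3 gave log2 fold changes against samples 1 and 2 of 0.27 and 0.52 for BDNF, -1.12 and -1.42 for MSTN, 0.25 and -0.03 for IL15, 0.62 and 0.65 for METRNL, -0.19 and 0.55 for IGF2, and -0.30 and -0.38 for ACVR2B, and none of these had an unadjusted p under 0.05.

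ACVR2B (ENSCAFG00000005035), the receptor of myostatin and activins, had the smallest SD relative to its mean of the 10 genes over the 13 libraries, 3.33 CPM around 14.02 CPM. Basal levels were 20.8, 13.3 and 13.6 CPM in dogs 2, 3 and 4, and the insulin libraries ran from 9.31 CPM in dog 2 sample 3 through a median of 13.2 CPM to 20.1 CPM in dog 2 sample 2. The log2 fold change was -0.25 ± 0.21 in insulin against basal (95% confidence interval -0.71 to 0.21, adjusted p = 1). It was -0.27 ± 0.25 and -0.18 ± 0.25 in samples 1 and 2 against sample 0, and 0.09 ± 0.23 in sample 2 against sample 1 (adjusted p = 1, 0.956 and 0.958). Insulin libraries were all below basal in dogs 2 and 4 and on both sides of it in dog 3.

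SMAD7 (ENSCAFG00000019069), which blocks the receptor's signal, was near the limit of detection. It had 41 counts over all 13 libraries, 13 of them in dog 2 sample 1 and 9 in dog 2 sample 3, and 0 in dog 1 sample 2, dog 3 sample 1 and dog 4 sample 0. A count of 0 allows up to 3 counts, or 0.0452, 0.04998 and 0.0693 CPM in these 3 libraries, for counting error only. In a fit without the filter its log2 fold change was 1.44 ± 1.47 (adjusted p = 1), so that no difference was detectable at this depth.

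The wider myostatin and activin pathway held no gene past the threshold. Of 29 listed genes 26 were tested and 0 passed in insulin against basal with edgeR or DESeq2, 1 had an unadjusted p under 0.05 (the protease gene TLL1, named after its value was seen, at 1.48 ± 0.63), and the median log2 fold change was 0.01. TGFBR2, a TGF-beta receptor, had 19.3 ± 10.9 CPM (SD, n = 3) at baseline and 11.7 ± 3.31 CPM (n = 10) with insulin, and ACVR2A, the sister receptor of ACVR2B, had 13.2 ± 1.41 and 10.7 ± 1.71 CPM. The highest TGFBR2 level, 31.8 CPM, was in dog 3 sample 0. Their log2 fold changes were -0.40 ± 0.26 and -0.24 ± 0.18 (adjusted p = 1 for both). In the related BMP branch 0 of 15 tested genes passed with either tool and 0 had an unadjusted p under 0.05, with a median of 0.08. The ligand BMP5 had 0.82 ± 0.40 and the receptor ACVR1 0.41 ± 0.22 (adjusted p = 1 for both).

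IGF1 (ENSCAFG00000007304) lay below basal in some dogs and above it in others. Basal levels were 3.96, 5.37 and 1.46 CPM in dogs 2, 3 and 4. With insulin, samples 1 and 2 held 2.90 and 1.90 CPM in dog 2, 4.26 and 3.05 CPM in dog 3 and 1.73 and 1.73 CPM in dog 4, which was below basal in dogs 2 and 3 and above it in dog 4. Dog 1 held 2.31 and 1.76 CPM in samples 1 and 2. Sample 3 held 5.202 CPM in dog 1 and 3.61 CPM in dog 2, above samples 1 and 2 of the same dogs.

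The IGF1 log2 fold change was -0.30 ± 0.33 in insulin against basal (95% confidence interval -1.01 to 0.40, adjusted p = 1). It was -0.27 ± 0.30 in sample 1 and -0.63 ± 0.30 in sample 2 against sample 0, and -0.36 ± 0.27 between samples 2 and 1 (adjusted p = 1, 0.955 and 0.902). Sample 3 gave 0.75 ± 0.35 against sample 1 and 1.12 ± 0.35 against sample 2 (adjusted p = 0.989 and 0.946). Dog 3 sample 0, with the highest IGF1 level, was also the library with the fibroblast marker sum of 3016 CPM, and dog 4 sample 0, with the lowest, had the lowest sum of 240 CPM. Between these ends the order was not the same. Dog 1 sample 2 had the next highest fibroblast sum, 1225 CPM, and an IGF1 level of 1.76 CPM. All 8 fibroblast markers had a lower mean with insulin, but the basal mean includes dog 3 sample 0, and the dogs differed. In dog 2 the sum was 697 CPM in the basal library and 975, 453 and 808 CPM in samples 1, 2 and 3. In dog 3 samples 1 and 2 held 769 and 537 CPM, below basal. In dog 4 samples 1 and 2 held 338 and 610 CPM, above basal. Dog 1 sample 3 held 1067 CPM. The part of fibroblasts, or of the other cell types with high marker sums in dog 3 sample 0, in the IGF1 levels was not tested.

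IGF2 (ENSCAFG00000010090) was lower in sample 2 than in sample 1 in 3 of 4 dogs. Samples 1 and 2 held 2.68 and 2.05 CPM in dog 1, 3.51 and 0.933 CPM in dog 2, 2.65 and 1.36 CPM in dog 3, and 1.24 and 1.33 CPM in dog 4. Sample 2 against sample 1 gave a log2 fold change of -0.74 ± 0.34 (unadjusted p = 0.0497, adjusted p = 0.902), so the difference did not pass. Basal libraries held 2.54, 2.33 and 0.993 CPM in dogs 2, 3 and 4, and insulin against basal gave -0.02 ± 0.36 (95% confidence interval -0.79 to 0.75, adjusted p = 1). Samples 1 and 2 against sample 0 gave 0.27 ± 0.36 and -0.47 ± 0.37 (adjusted p = 1 and 0.955).

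Of 18 listed genes of the IGF system 15 were tested, and 0 passed in insulin against basal with edgeR or DESeq2 and 0 had an unadjusted p under 0.05. Their median log2 fold change was -0.31. IGFBP6, a binding protein with preference for IGF2, had 21.1 ± 10.7 CPM (SD, n = 3) at baseline and 15.04 ± 6.08 CPM (n = 10) with insulin, a log2 fold change of -0.66 ± 0.34. HTRA1, a protease that can cleave IGF-binding proteins, had -0.58 ± 0.55, and the receptor IGF1R had -0.31 ± 0.32 (adjusted p = 1 for all 3). IGFBP6 and HTRA1 were highest in dog 3 sample 0, at 32.1 and 46.7 CPM.

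IL15 (ENSCAFG00000003626) was even across the basal libraries, at 2.43, 2.35 and 2.06 CPM in dogs 2, 3 and 4. Insulin libraries ran from 1.82 CPM in dog 3 sample 1 through a median of 2.51 CPM to 5.31 CPM in dog 1 sample 2. All 3 libraries of dog 1 were above the basal range, at 2.74, 5.31 and 3.42 CPM in samples 1, 2 and 3. Fitted log2 fold changes were -0.09 ± 0.25 in insulin against basal (95% confidence interval -0.64 to 0.46, adjusted p = 1), and -0.24 ± 0.29, 0.04 ± 0.30 and 0.28 ± 0.27 for sample 1 against 0, sample 2 against 0 and sample 2 against 1 (adjusted p = 1, 0.990 and 0.902). The 3 receptor genes IL15RA, IL2RB and IL2RG were scarce. All 3 had positive log2 fold changes between 0.33 and 1.32, and 0 passed or had an unadjusted p under 0.05.

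METRNL (ENSCAFG00000013112) also lay on different sides of basal in different dogs. Basal levels were 0.502, 1.08 and 0.346 CPM in dogs 2, 3 and 4, and insulin libraries were all above basal in dog 2 (0.802 to 1.12 CPM), all below in dog 3 (0.409 to 0.800 CPM) and on both sides in dog 4 (0.330 and 0.517 CPM). The highest level was 1.58 CPM in dog 1 sample 3. The log2 fold change was 0.09 ± 0.44 in insulin against basal (95% confidence interval -0.86 to 1.03), and 0.04 ± 0.49, 0.02 ± 0.51 and -0.02 ± 0.44 for sample 1 against 0, sample 2 against 0 and sample 2 against 1 (adjusted p = 1, 1, 0.997 and 0.993).

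FNDC5 (ENSCAFG00000010445), the irisin precursor, was scarce, with 118 counts over the 13 libraries. Basal libraries held 8, 7 and 4 counts in dogs 2, 3 and 4 (0.126, 0.103 and 0.0924 CPM), and insulin libraries from 1 count in dog 2 sample 3 (0.0171 CPM) to 20 counts in dog 1 sample 2 (0.301 CPM). Samples 1 and 2 lay above basal in dogs 3 and 4, while dog 2 had 5 and 9 counts. Fitted log2 fold changes were 0.59 ± 0.80 in insulin against basal (95% confidence interval -1.12 to 2.31), and 0.54 ± 0.77, 1.02 ± 0.79 and 0.48 ± 0.68 for sample 1 against 0, sample 2 against 0 and sample 2 against 1 (adjusted p = 1, 1, 0.955 and 0.924). Sample 3 gave -2.03 ± 1.08 against sample 1 and -2.51 ± 1.02 against sample 2 (unadjusted p = 0.0866 and 0.0321, adjusted p = 0.989 and 0.946), and the 2 libraries of sample 3 held 4 counts in all.

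Some of the 9 tested genes varied together between libraries of a dog. Over the 13 libraries, with each dog's mean subtracted, r was 0.78 for IGF1 with FST, 0.72 for MSTN with FNDC5 and 0.61 for IGF1 with IGF2. The lowest values were -0.55 for IL15 with ACVR2B, -0.55 for MSTN with METRNL and -0.54 for BDNF with FNDC5. BDNF and MSTN had r = -0.35. These are descriptions of 13 libraries from 4 dogs, in which the genes share the library total. They include any difference between basal and insulin libraries, which was not of the same sign in all 9 genes.

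Other factors that muscle can secrete were measured from a list of 28 genes, of which 19 were in the table and 14 were tested. In insulin against basal 0 passed with edgeR or DESeq2, 3 had an unadjusted p under 0.05, all higher (603 of all 14629 genes did), and the median log2 fold change was -0.01. VEGFA, the vessel growth factor, had 71.3 ± 22.4 CPM (SD, n = 3) at baseline and 134 ± 50.6 CPM (n = 10) with insulin (log2 fold change 1.05 ± 0.39, adjusted p = 0.915). DCN, a matrix proteoglycan that binds TGF-beta family ligands and is itself a fibroblast marker, had -0.56 ± 0.49 (adjusted p = 1), with its highest level of 1151 CPM in dog 3 sample 0. The other 2 with an unadjusted p under 0.05, named after their values were seen, were FGF21, with 0.0246 ± 0.0426 CPM at baseline and 0.296 ± 0.306 CPM with insulin (adjusted p = 0.550), and CHI3L1, with 0.0406 ± 0.00804 and 0.359 ± 0.383 CPM (adjusted p = 1). IL6, GDF15, LIF, NRG1 and OSTN were too scarce to be tested. Over the 6 lists together 81 different genes were tested, and 0 passed with edgeR or DESeq2 in sample 1 against 0, sample 2 against 0 or sample 2 against 1, where 3, 2 and 1 had an unadjusted p under 0.05 in edgeR. Over all 14629 genes 438, 724 and 495 did.

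**Figure D5:**
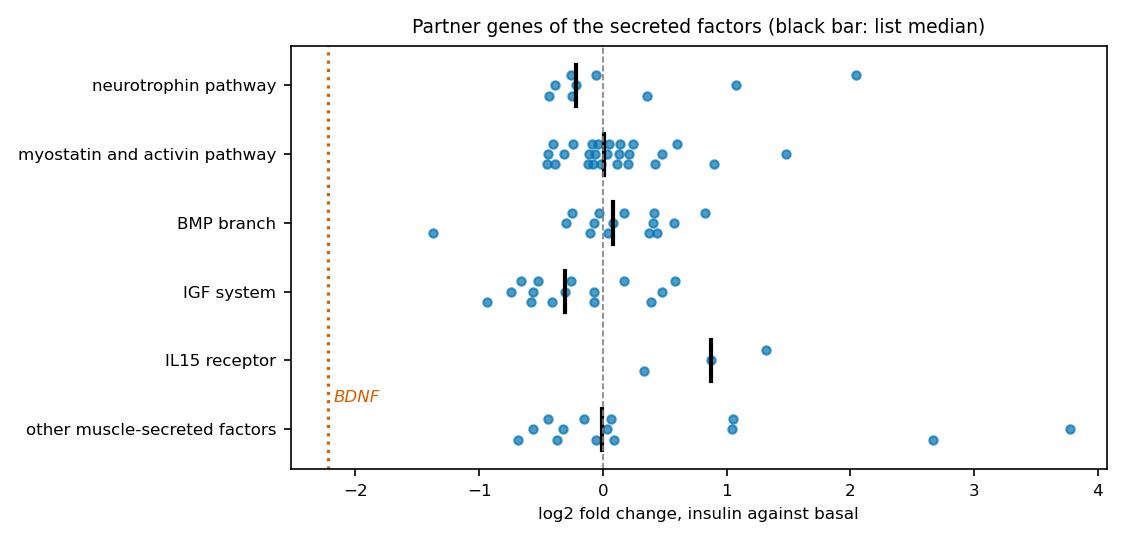
Log2 fold change of insulin against basal for the tested genes of 6 lists of partner genes, 1 point per gene, with the list median as a black bar and BDNF as a dotted line. The 6 medians lie between -0.31 and 0.87, and 0 of the 81 different genes passed the threshold.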

How the data were processed

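RNA was extracted from flash-frozen biopsies, copied with a SMART-Seq v4 kit, tagged with Nextera XT and sequenced on a NovaSeq 6000, per the labels' protocols. The authors deposited raw read counts per Ensembl gene and, beside them, a normalized signal, which was checked to equal each count divided by 1 size factor per library and was not used further. Bowtie 0.12.2 and CanFam3.1 appear in the submitters' processing notes. The counting program, annotation and strand setting are not given in the sources used here, so reads of overlapping or antisense transcripts could be included.

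Counts were tested in R 4.3.3 with edgeR 4.0.16 (filterByExpr, TMM, robust quasi-likelihood fits) on 14629 genes, with dog and stimulation, or dog and sample number, as terms. Adjusted p values (Benjamini-Hochberg) cover every gene tested and had to be under 0.05. SE is the fold change divided by the root of F, and log2 CPM used a prior count of 2. DESeq2 1.42.0 and the other settings in the closing section were alternatives. The fit was also run on simulated data with the same spread for every gene and no dog effect, so that run does not test the pairing by dog. Dogs pair the libraries because the labels give the same animal. Deviations from sample number means correlated with a median r of 0.17 over 15 pairs of 1 dog and -0.066 over 47 pairs of different dogs. No 2 libraries agreed within counting error (chi-square per gene of at least 51.8).

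All 10 genes were named, with their fold changes in insulin against basal and between samples 0, 1 and 2 for the 9 tested. From each partner list, genes past the threshold and the 2 of lowest p with a mean log2 CPM of at least 0 were named, and for BDNF and MSTN the 5 genes most like each. Other genes were added for their role (NTRK2, IGF1R). The genes and lists were chosen with earlier results of these data known. Insulin libraries that share a dog entered as separate replicates. The p values measure the spread left among all libraries after the fitted terms, with libraries and not dogs as the unit. No sequences or coordinates are given.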

Additional observations from a re-analysis of the deposited data

Results flagged for a closer look

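In 20 groups of 4 libraries (10 genes in samples 1 and 2), the gap between an extreme library and its nearest neighbour was set against the whole range, and in 2 it passed Dixon's limit, which chance passes in about 1 of 20 groups. IGF1 in dog 3 sample 2 was 3.05 CPM, while the next library of sample 2 held 1.90 CPM, and dog 3 also had the highest IGF1 level in samples 0 and 1. FST in dog 2 sample 1 was 7.91 CPM, while the other 3 libraries of sample 1 lay between 6.59 and 6.73 CPM.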

How the results depend on the processing

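The BDNF difference kept its direction in every setting tried, while its call depended on the libraries. With insulin libraries summed per dog 0 members were called (BDNF -2.22), and with libraries or whole dogs left out 0 to 1 were called, with BDNF between -2.39 and -1.95. Without the dog term (no replicate block) BDNF was -2.25 (adjusted p = 0.0405), and the block changed no member's call. DESeq2 called 1 member (BDNF) in sample 1 against sample 0 and 1 in sample 2 against sample 0, where edgeR without the count filter also called 1. With a library left out that comparison had 0 to 1 calls, the 1 being MSTN without dog 2 sample 0. RLE scaling reversed no member.

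Signs of small, uncalled differences were not stable. Without the block IL15 (0.23) and IGF2 (0.087) turned positive in insulin against basal, MSTN turned to -0.0526 in sample 1 against 0, and METRNL to 0.061 in sample 2 against 1. IGF2 was 0.038 with insulin libraries summed. With libraries or dogs left out, insulin against basal ran from -0.72 to 2.02 for MSTN, -0.25 to 0.039 for IL15, -0.35 to 0.65 for METRNL, -0.18 to 0.11 for IGF2 and -0.065 to 0.59 for FST. Sample 1 against 0 ran from -0.65 to 1.88 for MSTN, -0.015 to 1.21 for FNDC5, -0.32 to 0.59 for METRNL and -0.18 to 0.61 for FST. Sample 2 against 0 ran from -0.30 to 2.19 for MSTN, -0.14 to 0.21 for IL15, -0.50 to 0.67 for METRNL and -0.60 to 0.12 for FST. Sample 2 against 1 ran from -0.56 to 0.29 for BDNF, -0.016 to 0.64 for MSTN, -0.037 to 0.94 for FNDC5, -0.38 to 0.31 for METRNL and -0.077 to 0.31 for ACVR2B. The cause was not tested.

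Over all genes, 20 were called in insulin against basal, 104 by DESeq2, 140 without the count filter, 6 without the block, 3 with insulin libraries summed and 4 to 28 with libraries or dogs left out. Comparisons with sample 3 were added after the levels were seen, rest on 2 dogs, and kept the direction of FST, IGF1 and FNDC5 in every fit. Depth limits FNDC5 and SMAD7, whose counts per library were at most 20 and 13.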
